A study of Mus musculus with 33 samples.

Results

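Dppa5a, Dppa4, Dppa2, Fbxo15, Sall4 and L1td1 are 6 genes of the 52631 in a table of mouse RNA-seq expression values, and were selected by name as stem cell genes partly kept on day 16 of 1 of 2 differentiation protocols. The table holds 33 libraries in 11 groups of 3. Embryonic stem cells (mES, strain 129S2/SvPas) had been grown in serum and LIF on fibroblast feeders whose division was blocked with mitomycin. For differentiation they were moved to gelatin in 15% serum with 10 µM all-trans retinoic acid (the RA arm), or with 10 µM retinoic acid and 5 µM CHIR (the RA/CHIR arm). CHIR blocks GSK3, a kinase that holds Wnt signalling down, and so switches that pathway on. Both arms were sampled on days 4, 7 and 10 under the inducers and on day 16, after 6 further days in 10% serum without them. The labels call the RA arm smooth muscle-like and the RA/CHIR arm similar to extraembryonic endoderm (XEN) cells. Smooth muscle cells (SMC) and XEN cells, grown in 15% serum, were the reference lines, labelled with the same strain. The labels do not say whether replicates were separate cultures, so p-values measure only the spread between these samples, which may be technical.

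All 6 genes are known for high expression in mouse pluripotent cells. DPPA2 and DPPA4 are nuclear proteins with a SAP domain that bind each other and DNA, and they are known to keep some developmental promoters open and to promote a gene programme of the 2-cell embryo. DPPA5A carries a KH-type RNA-binding fold and L1TD1 is an RNA-binding protein descended from a LINE-1 retrotransposon. SALL4 is a zinc finger transcription factor that recruits the NuRD chromatin remodelling complex and is also active in early endoderm lineages and germ cells. FBXO15 is an F-box protein, the class that brings substrates to the SCF ubiquitin ligase, and its locus was an early reporter of reprogramming.

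Positions are given in the GRCm38 genome (GENCODE M21 annotation). Dppa4 (chr16:48283733-48294237, plus strand) and Dppa2 (chr16:48303908-48319723, plus strand) are neighbours 9.7 kb apart. Dppa5a spans chr9:78367052-78368177 on the minus strand, Sall4 chr2:168748332-168767943 on the minus strand, and L1td1 chr4:98726734-98738480 on the plus strand. The table of RefSeq promoter windows (GRCm38.p6) matched 1 of the 6 members, L1td1. The stretch of that window before the gene start, shown as the only window matched, is chr4:98726504-98726733 on the plus strand, with its 11 CpG dinucleotides in capitals.
L1td1 promoter: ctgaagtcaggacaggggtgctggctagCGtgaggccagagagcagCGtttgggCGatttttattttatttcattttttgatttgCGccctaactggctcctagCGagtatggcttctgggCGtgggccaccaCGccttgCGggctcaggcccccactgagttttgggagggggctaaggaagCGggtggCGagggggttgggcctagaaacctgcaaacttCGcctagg
The full window of 300 bases had 58.7% GC and 14 CpG dinucleotides, against medians of 52.7% and 7 over all 32851 windows. Neither strand held a match to any of 6 motifs searched. Of all windows, ATGCNAAT (octamer) was found in 3.15%, ACAATG (Sox) in 12.6%, TCAAGGTCA (Esrrb) in 0.423%, CTTTGAT (TCF/LEF) in 3.73%, GGGCGG (GC box) in 35.7% and AGGTCA, a nuclear receptor site contained in the Esrrb motif, in 16.3%. These matches are letters in a window, not sites.

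Expression is given in FPKM, which scales fragments by transcript length and library size, so levels may be compared between genes. The read counts behind the values are not in the table, so the depth of each value is unknown beyond the stated aim of about 25M read pairs of 150 bases. Libraries held between 11573 and 13662 genes at 1 FPKM or more. The labelled cell types carried their markers: the summed level of 6 stem cell markers was 2602 to 3164 FPKM in mES, that of 9 endoderm markers 2140 to 2329 in XEN, and that of 7 smooth muscle markers 18606 to 19272 in SMC. The endoderm sum does not single out XEN: it was 2348 to 2451 FPKM in RA-4d, and Col4a1 alone gave 1182.8 of the XEN mean. One library, mES replicate 3, stood apart, with the highest column sum (1086371 FPKM) and a single gene at 303769 FPKM. Dppa4, Dppa2 and Fbxo15 were well above the other mES libraries in it. Dppa5a (5232 FPKM against 4948 and 4594) and L1td1 (162.3 against 154.8 and 157.0) were also highest there, by less. Shares of the mES level are therefore also given without mES replicate 3 where they move.

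Dppa5a had the highest mean of the 6 genes in every group except XEN. Its libraries stood at 4948, 4594 and 5232 FPKM in mES, and at 780.0, 794.6 and 813.8 in RA/CHIR-16d. The RA-16d libraries were at 56.8, 28.9 and 44.9 FPKM. Every RA/CHIR-16d library thus lay below every mES library and above every RA-16d library. The mean in RA/CHIR-16d was 16.2% of the mES mean, against 0.884% in RA-16d. In bulk RNA a level cannot be split into the share of cells with the transcript and the amount per cell: fewer expressing cells and less RNA per cell cannot be told apart.

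Fbxo15, on chromosome 18, kept the highest share of the 6. It measured 109.7, 109.6 and 136.8 FPKM in the mES libraries and 79.0, 80.0 and 79.1 in RA/CHIR-16d. That is 66.9% of the mES mean, or 72.4% without mES replicate 3. In RA-16d it measured 3.03, 2.60 and 2.68 FPKM, 2.33% of the mES mean, with no overlap between the arms.

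Sall4 and Dppa2 kept about equal shares. Sall4 stood at 18.9, 14.1 and 15.5 FPKM in RA/CHIR-16d against 50.6, 65.1 and 64.0 in mES, which is 27.0% of the mES mean. The RA-16d libraries of Sall4 were uneven, at 6.93, 2.17 and 2.98 FPKM, and their mean was 6.73% of mES, or 4.30% without replicate 1. Dppa2 stood at 9.85, 7.63 and 10.2 FPKM in RA/CHIR-16d and at 31.0, 30.2 and 48.2 in mES. Its share was 25.3%, or 30.2% without mES replicate 3, and in RA-16d it was 2.66%.

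L1td1 and Dppa4 kept less. L1td1 measured 23.2, 23.4 and 26.3 FPKM in RA/CHIR-16d against 154.8, 157.0 and 162.3 in mES, a share of 15.4%, and 1.39% in RA-16d. Dppa4 measured 8.03, 7.35 and 10.2 FPKM against 89.4, 89.3 and 147.1, a share of 7.84%, or 9.53% without mES replicate 3. In RA-16d Dppa4 was at 0.745, 0.207 and 0.527 FPKM, 0.454% of mES. These day 16 and mES levels are what the members were selected on and carry no test. The rule used below called 8.41% of the genes tested higher in RA/CHIR-16d than in RA-16d, and nothing is read from it for genes selected on that difference.

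**Figure D1:**
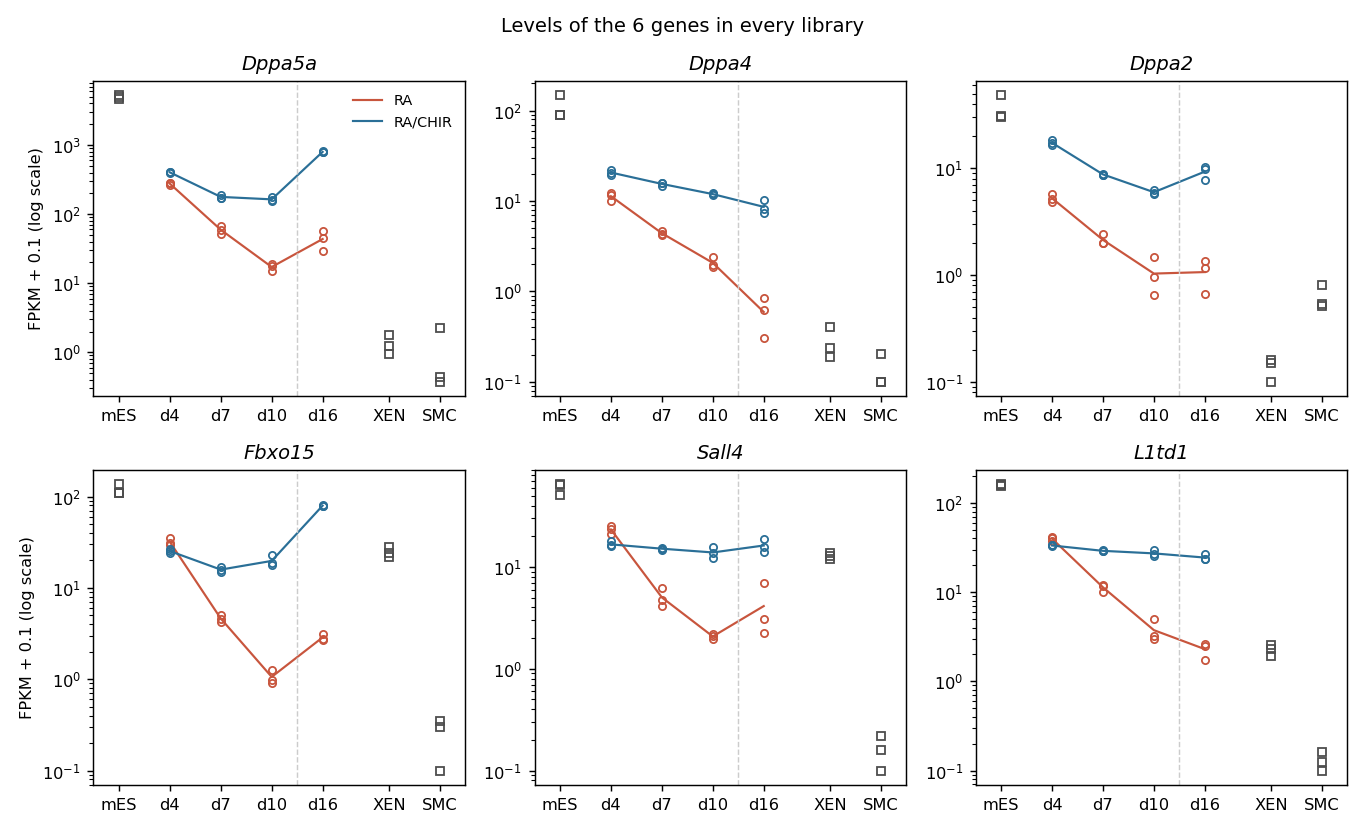
FPKM plus 0.1 (log scale) of each gene in every library, by day in the RA arm (red) and the RA/CHIR arm (blue), with mES, XEN and SMC as squares; lines join the means of 3 libraries, a value of 0 is drawn at 0.1, and the dashed line marks removal of the inducers. From day 7 on, the RA/CHIR line lies above the RA line in each panel, and the day 16 levels are among those the genes were selected on.

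The 6 genes were set among the 227 genes that averaged at least 10 FPKM in mES and were at no more than 10% of that in RA-16d, a group that includes all 6. In RA/CHIR-16d these 227 genes had a median of 5.6% of their mES level, with quartiles of 1.69% and 13.7%. Shares at least as high as that of Fbxo15 were found in 2.64% of them, of Sall4 in 9.25% and of Dppa2 in 9.69%. For Dppa5a the figure was 20.3%, for L1td1 20.7% and for Dppa4 39.6%. High places here follow in part from the selection of the 6 genes on these levels, so they describe the genes and support nothing.

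**Figure D2:**
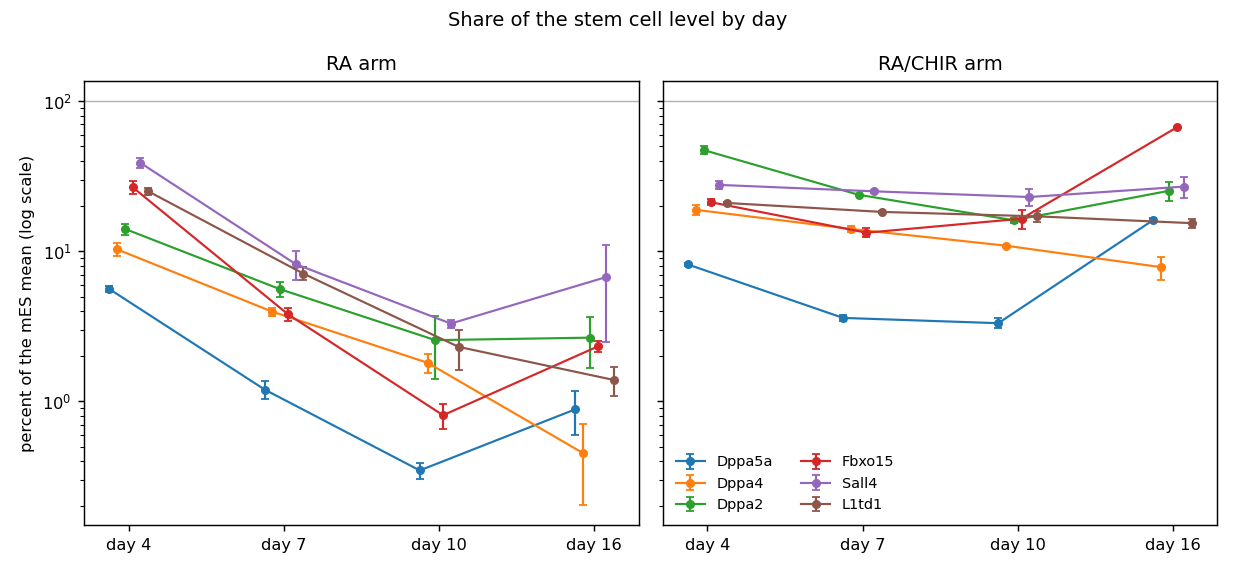
Mean level as percent of the mES mean (log scale) by day for the 6 genes in the RA arm (left) and the RA/CHIR arm (right); bars are the SD of 3 libraries of the differentiated group divided by the mES mean. On day 16 the shares run from 7.84% (Dppa4) to 66.9% (Fbxo15) in RA/CHIR and from 0.454% (Dppa4) to 6.73% (Sall4) in RA.

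Levels before day 16 were not named in the selection, but the members were chosen with earlier results of these data known. Those days are also earlier points of the same arms, so a higher RA/CHIR level there may follow in part from the selection. The difference between the arms was tested on them, and the calls are not independent of the selection. Tests used limma on log2(FPKM + 1) over 16508 genes, and a gene was called at an adjusted p (Benjamini-Hochberg) under 0.05 with a log2 difference of at least 1 in size. Log2 differences are on this scale, which understates changes of low values. On day 4 Dppa2 alone of the 6 was called, higher with CHIR by 1.57 ± 0.15 (log2 ± SE, limma adjusted p = 4.32e-09), where 3.34% of all genes tested were called higher. Its libraries were at 17.2, 16.3 and 18.2 FPKM in RA/CHIR-4d and 5.11, 5.59 and 4.75 in RA-4d. Its neighbour Dppa4 differed by 0.82 (limma adjusted p = 5.13e-05), below the size asked for a call.

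The other 4 genes were not called on day 4. Dppa5a differed by 0.54, with a 95% interval of 0.08 to 1.01. Fbxo15 differed by -0.32 (-0.54 to -0.10), Sall4 by -0.46 (-0.87 to -0.06) and L1td1 by -0.25 (-0.48 to -0.01). All 3 RA-4d libraries of Sall4 (21.2, 23.6 and 25.0 FPKM) were above the RA/CHIR-4d libraries (15.8, 17.7 and 16.2).

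By day 7 all 6 genes were called higher in the RA/CHIR arm, where 4.06% of all genes were. The log2 differences ran from 1.30 ± 0.11 (L1td1) to 1.67 ± 0.15 (Dppa2), with a largest limma adjusted p of 1.99e-06. On day 10 all 6 were again called higher, against 6.35% of all genes, with a median of 2.46 (0 over all genes tested). Fbxo15 differed most, by 3.39 ± 0.11 (limma adjusted p = 2.91e-19), with 18.5, 17.6 and 22.8 FPKM in RA/CHIR-10d and 0.817, 1.17 and 0.891 in RA-10d. Dppa5a followed with 3.19 ± 0.23 (19.0, 17.5 and 14.7 FPKM in RA-10d), L1td1 with 2.62 ± 0.11, Sall4 with 2.31 ± 0.20 and Dppa4 with 2.11 ± 0.15. Dppa2, the first to be called, had the smallest difference on this log2(FPKM + 1) scale on day 10, 1.85 ± 0.15. Its mean in RA-10d was 0.934 FPKM, and as a ratio of means the difference was 6.29, against 6.0 for Dppa4.

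**Figure D3:**
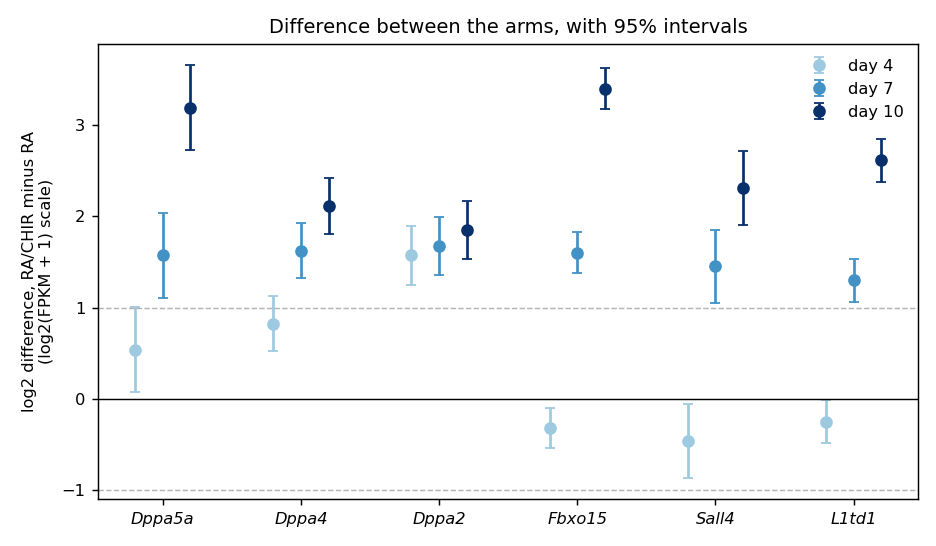
Log2 difference between the arms (RA/CHIR minus RA, log2(FPKM + 1) scale) on days 4, 7 and 10 for each gene; points are limma estimates from 3 libraries per group, bars are 95% intervals, and dashed lines mark the size asked for a call. Dppa2 is past the upper dashed line on day 4, and all 6 genes are past it on days 7 and 10.

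The steps within each arm showed how the gap opened. In the RA arm all 6 genes fell from day 4 to day 7, where 2.04% of all genes were called lower. The falls ran from -2.57 ± 0.11 for Fbxo15, with libraries at 35.1, 31.0 and 29.1 and then 4.97, 4.08 and 4.50 FPKM, to -1.02 ± 0.15 for Dppa2. The Dppa2 call rests on its size limit: without RA-4d replicate 2 the value was -0.97, and without RA-7d replicate 1 or replicate 3 it was -0.99. From day 7 to day 10, 3 of 6 were called lower in the RA arm (0.836% of all genes): Dppa5a by -1.74 ± 0.23, Fbxo15 by -1.49 ± 0.11 and L1td1 by -1.41 ± 0.11. Sall4 (-0.98), Dppa4 (-0.84) and Dppa2 (-0.67) were under the size limit with limma adjusted p of 0.00181 or less. Sall4 was called without RA-7d replicate 1 (-1.0), RA-7d replicate 2 (-1.09) or RA-10d replicate 1 (-1.01).

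In the RA/CHIR arm only Dppa5a of the 6 was called lower from day 4 to day 7, by -1.18 ± 0.23 (limma adjusted p = 0.000254), with 1.62% of all genes called lower. Dppa2 (-0.91) and Fbxo15 (-0.64) had limma adjusted p of 5.27e-05 and 5.28e-05 below the size limit. Sall4 differed by -0.13, with an interval of -0.53 to 0.27, and L1td1 by -0.19 (-0.43 to 0.04). From day 7 to day 10 limma called 0 of 6 lower, against 0.424% of all genes, and by adjusted p alone only Dppa2 (-0.49, limma adjusted p = 0.024). Of the 6, 3 had an unadjusted p under 0.05: Dppa2, Dppa4 (-0.35) and Fbxo15 (0.29). L1td1 means were 33.2, 28.9 and 27.0 FPKM on days 4, 7 and 10, and Sall4 means 16.6, 15.0 and 13.8. The L1td1 libraries of days 7 and 10 overlapped, as did those of Sall4.

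The change from day 4 to day 10 was compared between the arms as an interaction. It was called for 5 of 6 genes, each less negative in the RA/CHIR arm, where 6.29% of all genes were called in that direction. Fbxo15 had the largest interaction, 3.71 ± 0.15 (limma adjusted p = 2.63e-16). It was 0.28 ± 0.22 for Dppa2 (interval -0.17 to 0.73, limma adjusted p = 0.333), which differed between the arms from day 4 on. The log2(FPKM + 1) scale understates changes of values as low as the Dppa2 mean in RA-10d (0.934 FPKM). As a ratio of means, RA/CHIR over RA, Dppa2 went from 3.35 on day 4 to 6.29 on day 10. Dppa4, next to Dppa2 on the chromosome, had an interaction of 1.29 ± 0.21.

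The step from day 10 to day 16, when retinoic acid and CHIR were no longer present, is a description, since day 16 chose the genes. The 6 genes did not share a direction. In the RA/CHIR arm Dppa5a went from 177.1, 152.9 and 160.2 FPKM to a mean 4.87 times as high, and Fbxo15 to a mean 4.04 times as high. Among the 227 genes above, 17.6% had a mean at least 2 times as high in RA/CHIR-16d as in RA/CHIR-10d and reached 1 FPKM.

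Dppa2 had a mean 1.57 times as high on day 16, from 5.83, 5.67 and 6.13 FPKM, without overlap. The Sall4 ratio was 1.17 and that of L1td1 0.897, and for both the libraries of the 2 days overlapped. For Dppa4 the ratio was 0.72, from 11.8, 12.0 and 11.7 FPKM, without overlap, so the neighbours Dppa2 and Dppa4 lay on opposite sides of 1.

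The RA arm showed a similar order at far lower levels. There the ratio of day 16 to day 10 was 2.89 for Fbxo15, 2.55 for Dppa5a and 2.04 for Sall4, which had 6.93 FPKM in RA-16d replicate 1 and a ratio of 1.30 without it. Dppa2 was at 1.04 with overlap, L1td1 at 0.602 and Dppa4 at 0.25.

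**Figure D4:**
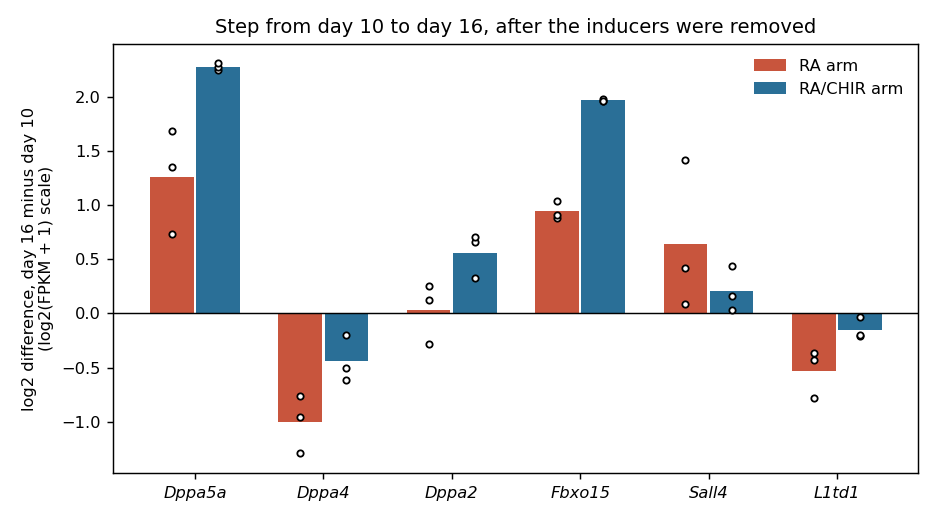
Difference in mean log2(FPKM + 1) between day 16 and day 10 in the RA arm (red) and the RA/CHIR arm (blue); bars are group differences and points the 3 day 16 libraries minus the day 10 mean. Dppa5a and Fbxo15 are above 0 in both arms, and Dppa4 and L1td1 are below 0 in both.

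Markers of other cell types differed over the same step. The summed level of 9 endoderm markers was 2106 to 2189 FPKM in RA/CHIR-10d and 4958 to 5388 in RA/CHIR-16d. Col4a1, also at 630.7 FPKM in SMC, gave on average 1336.4 and 3078.4 FPKM of these sums, and Lama1 160.1 and 945.9. Sox17 was at 333.4 and 361.8 FPKM, and Sox7 was lower on day 16 (9.59 and 5.81). Of 7 primordial germ cell markers, 4 had means of at least 1 FPKM in RA/CHIR-16d, and their sum went from 19.7 to 22 in RA/CHIR-10d to between 138.0 and 144.7 FPKM. Kit, a receptor shared by many cell types, gave 133.7 FPKM of that mean, while Dppa3 was at 2.59 and Nanos3 was listed at 0. The 6 stem cell markers summed to 288.4 to 295.9 FPKM on day 10 and 249.9 to 266.0 on day 16. Nanog was at 3.27 FPKM and Sox2 at 3.07 in RA/CHIR-16d, 0.867% and 1.37% of mES. In the same group Pou5f1 was at 143.7 FPKM (10.8% of mES) and Klf4 at 73.9 (36.3%). Zfp42 was at 27.2 FPKM (6.04%) and Esrrb at 4.56 (2.13%). The part of these markers' cells in the levels of the 6 genes was not tested.

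In the reference lines the genes divided differently. XEN cells held Fbxo15 at 24.1, 21.4 and 27.9 FPKM and Sall4 at 11.8, 13.5 and 12.6. L1td1 was at 1.84, 2.42 and 2.19 FPKM in XEN and Dppa5a at 1.70, 0.852 and 1.13, while Dppa4 stayed under 0.31 and Dppa2 was listed at 0, 0.0495 and 0.0609. In SMC no library of Dppa4, Fbxo15, Sall4 or L1td1 exceeded 0.248 FPKM, and each of these was listed at 0 in at least 1 library. Dppa5a was at 0.340, 0.273 and 2.18 FPKM in SMC and Dppa2 at 0.433, 0.701 and 0.419. Against SMC, 3 of 6 were called higher in XEN, with 12.5% of all genes: Fbxo15 by 4.47 ± 0.11, Sall4 by 3.69 ± 0.20 and L1td1 by 1.61 ± 0.11. With a pseudocount of 0.1, Dppa4 was also called higher (1.06 in place of 0.19) and Dppa2 lower (-2.17 in place of -0.55), at levels under 1 FPKM in both lines.

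RA/CHIR-10d cells were then set against XEN cells. Of the 6 genes, 4 were higher in RA/CHIR-10d, with 12.7% of all genes: Dppa5a by 6.22 ± 0.23, Dppa4 by 3.45 ± 0.15, L1td1 by 3.16 ± 0.11 and Dppa2 by 2.73 ± 0.15. Fbxo15 differed by -0.30, with an interval of -0.53 to -0.08, and Sall4 by 0.11 (-0.29 to 0.51), and neither was called. For both, the libraries of the 2 groups overlapped. On day 16 the Fbxo15 mean was 3.25 times that of XEN. RA-10d cells had 4 of 6 called higher than SMC, with 15.1% of all genes: Dppa5a by 3.36 ± 0.23, L1td1 by 2.15 ± 0.11, Dppa4 by 1.52 ± 0.15 and Sall4 by 1.49 ± 0.20. Fbxo15 differed by 0.77 without a call, and by 2.26 with a pseudocount of 0.1, which called it.

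The full order of the groups differed by gene. All 6 were highest in mES, without overlap with the next group. Dppa5a and Fbxo15 came second in RA/CHIR-16d, Dppa4 and Dppa2 in RA/CHIR-4d, and Sall4 and L1td1 in RA-4d, each above the group after it. For Sall4 the next groups, RA/CHIR-4d, RA/CHIR-16d, RA/CHIR-7d, RA/CHIR-10d and XEN (means of 16.6 to 12.6 FPKM), each overlapped the one after. For L1td1, RA/CHIR-7d, RA/CHIR-10d and RA/CHIR-16d (28.9 to 24.3 FPKM) did so. SMC had the lowest mean for 5 genes, overlapping XEN for Dppa5a and Dppa4, and XEN the lowest for Dppa2.

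Across the 11 group means of log2(FPKM + 1), the closest pairs among the 6 were Dppa4 with L1td1 (Pearson r = 0.973), Dppa4 with Dppa2 (0.966) and Fbxo15 with Sall4 (0.955). The lowest r was 0.741, for Fbxo15 with Dppa4 and with Dppa2. The groups share arms and time courses and all include the high mES level, so these values are a description. The most similar genes were sought among genes tested with a unique symbol and at least 5 FPKM on average in their highest group. Symbols of the Gm number or Rik kind were left out. Among these, Dppa5a was most like Tex19.1 (0.987), a germline and placental gene, Mier1 (0.977) and Upp1 (0.974), the uridine phosphorylase. Dppa4 was most like Ranbp17 (0.984), Rex2 (0.983) and Hnrnpu (0.981), and Dppa2 like Rpl10l (0.984), Rex2 (0.977) and Tcl1 (0.972).

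Fbxo15 was most like Ing5 (0.978), Sall1 (0.976) and Fam76b (0.958). Sall1, a relative of Sall4, stood at 32.9 FPKM in mES, 7.33 in RA/CHIR-10d, 17.0 in RA/CHIR-16d and 9.20 in XEN. Sall4 was most like Cecr2 (0.975), Taf5l (0.973) and Nsmce4a (0.972), and L1td1 like Hnrnpu (0.985), Upp1 (0.974) and Dppa4 (0.973). These likenesses take no account of size: Hnrnpu went only from 272.5 FPKM in mES to 164.2 in RA-10d.

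A list of 12 genes held relatives of the 6 genes, and Morc1, which was listed as a neighbour of Dppa2 and Dppa4. Of these 12, 11 were found by symbol and 7 passed the filter on low values. On day 10, 1 of these 7 was called higher with CHIR, with 6.35% of all genes: Sall1 by 1.43 ± 0.09 (limma adjusted p = 5.84e-13). Sall2 differed by -0.83 without a call and was at 11.7 FPKM in RA-10d and 6.15 in RA/CHIR-10d, against 1.17 in mES. Ooep and Khdc3, KH-type relatives of Dppa5a known from oocytes, were at 24.4 and 27.2 FPKM in mES and at 0.169 and 0.0506 in RA/CHIR-10d. Ooep, which lies 7.9 kb from Dppa5a, was at 2.88 FPKM in RA/CHIR-16d. Morc1, a germline silencing gene, was at 11.1 FPKM in mES, 0.541 in RA/CHIR-10d and 1.65 in RA/CHIR-16d, and Sall3 was at 1.86 FPKM in mES and under 0.4 in RA/CHIR-10d. Dppa3, a maternal and germ cell factor, reached 1 FPKM on average only in RA/CHIR-16d.

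Partners of the proteins were present throughout. By limma 0 of 11 NuRD subunits were called between the arms on day 4, 7 or 10, where 1259, 1762 and 2546 of all 16508 genes were. Even so, 6, 8 and 11 of the subunits had an unadjusted p under 0.05 on these days. The differences on day 10 were small: Mta3 0.72 (limma adjusted p = 6.17e-09), Gatad2b -0.52 and Chd4 -0.48. The other day 10 values were -0.47 for Rbbp4, 0.47 for Rbbp7, -0.41 for Hdac2, -0.21 for Mta1, -0.20 for Hdac1 and Mbd3, 0.16 for Mta2 and 0.15 for Gatad2a. Of the SCF core, Skp1a differed by -0.38, Cul1 by 0.03 and Rbx1 by -0.11, and limma called 0 of 3 (1 with an unadjusted p under 0.05 on day 10). In RA/CHIR-10d these 3 were at 164.9, 52.6 and 44.0 FPKM.

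The pluripotency network as a whole was divided. Of 40 listed genes, 15 were called higher and 2 lower with CHIR on day 10 (median 0.42, against 0 over all genes), after 10 and 2 on day 4 and 13 and 2 on day 7. Of all genes tested, 6.35% were called higher on day 10, 3.34% on day 4 and 4.06% on day 7. Those called lower were 1498, 707 and 1092 of 16508. Called members included the nuclear receptor Esrrb (4.24 ± 0.09), the core factor Pou5f1 (4.09 ± 0.29) and Nr0b1 (2.82 ± 0.18). Nanog differed by -0.16 and Sox2 by 0.01 on day 10, without a call. Of the 35 network genes with at least 10 FPKM in mES, 11 had less than 3% of their mES level in RA/CHIR-16d. At the other end, Klf5, Dnmt3b, Tex19.1 and Cdh1 had at least the share of Fbxo15. Of the same 35 genes, 11 had a mean in RA/CHIR-16d at least 2 times that in RA/CHIR-10d and reached 1 FPKM, as Fbxo15 and Dppa5a did, among them Klf5 (28.2 and 83.1 FPKM on days 10 and 16), Tex19.1 (7.69 and 24.1) and Nanog (0.233 and 3.27). Esrrb was at 23.5 FPKM in RA/CHIR-10d and 4.56 in RA/CHIR-16d.

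Of the genes of the 2-cell programme, which DPPA2 and DPPA4 are known to promote, 19 passed the filter. Of these, 18 were called lower from day 4 to day 7 in the RA arm and 17 in the RA/CHIR arm (medians -2.09 and -2.14). The shares of all genes tested were 2.04% and 1.62%. Zscan4d, from a family of near-identical copies whose reads cannot be assigned with certainty, was at 9.38 FPKM in mES. On day 4 it measured 18.8 FPKM with retinoic acid alone and 26.6 with CHIR added, then 0.193 and 2.70 on day 7. Over the same step Dppa2 and Dppa4 were called lower in the RA arm (-1.02 and -1.20). In the RA/CHIR arm they differed by -0.91 and -0.40, below the size limit (limma adjusted p = 5.27e-05 and 0.0459). Their means there on day 7 were 8.68 and 15.3 FPKM. For Dppa2 the changes in the 2 arms (SE 0.15 each) lay close together on either side of the size limit. The courses of the list and of the pair were not tested against each other. On day 7, 4 of the 19 were higher with CHIR (Zscan4c, Zscan4d, Zscan4f and Pramel7), and on day 10 only Pramel7 was (1.76 ± 0.23), all chosen for naming after their values were seen. Of all genes tested, 4.06% were called higher on day 7 and 6.35% on day 10. Pramel7 was at 3.19 FPKM in RA/CHIR-10d and 41.6 in RA/CHIR-16d, against 0.900 in mES.

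Of 23 germline genes that are known to be kept silent by DNA methylation and passed the filter, 6 were called higher with CHIR on day 10 and 1 was called lower, with a median of 0.40. On day 4 these counts were 5 and 0, and on day 7 they were 2 and 1. Of all genes tested, 6.35% were called higher on day 10, 3.34% on day 4 and 4.06% on day 7. Those called lower were 1498, 707 and 1092 of 16508. Rpl10l differed by 2.02 ± 0.18 and Taf7l by 1.72 ± 0.13. Of 10 genes near L1TD1 in function, Lin28a (2.04 ± 0.12) and Trim71 (1.82 ± 0.08), regulators of RNA in stem cells, were called higher on day 10. Zcchc3 was called lower, by -1.59 ± 0.10. Lin28a and Trim71 are also in the pluripotency network list, so they count in both lists. On day 4 Lin28a was called lower with CHIR (-1.2). Counts for this list were 0 higher and 2 lower on day 4, and 1 and 1 on day 7. Lin28a had 89.1 FPKM in XEN, against 2.15 for L1td1.

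Apart from Dppa2 and Dppa4 themselves, no gene beside a member on its chromosome was called higher with CHIR on day 10. Of all genes tested only 6.35% were, so among so few neighbours the lack of a call says little. The flanking genes of L1td1 differed by 0.51 (Patj) and -2.65 ± 0.11 (Kank4, limma adjusted p = 2.36e-17, called lower). Kank4 lies 16.4 kb from L1td1 and was at 10.1 FPKM in RA-10d and 0.777 in RA/CHIR-10d. Atp9a (0.42) and Zfp64 (0.51) beside Sall4, Nectin3 (-0.86) beside Dppa4 and Cyb5a (0.20) beside Fbxo15 were not called. Gsta2 (-0.07) and Ooep (0.19) beside Dppa5a were not called either, and Gm5485 beside Dppa2 and Neto1 beside Fbxo15 did not pass the filter.

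Near-identical sequence elsewhere could affect some of these levels, since the way reads with several matches were assigned is not given in the sources used here. Of all stretches of 100 bases in the annotated transcripts, 23.9% for Dppa2, 14.0% for Dppa4, 5.77% for Sall4 and 3.08% for Dppa5a also occur in another annotated gene, and 0% for Fbxo15 and L1td1. Most of the others are processed pseudogenes. The highest of these by FPKM was Gm14058, with sequence of Dppa4, at 6.61 FPKM in mES and 0.605 in RA/CHIR-16d. Of the Dppa5a copies, Dppa5b (by its identifier) was listed at 0 in every library and Dppa5c reached at most 1.05 FPKM.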

How the data were processed

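Poly(A) RNA from 33 samples was sequenced as paired reads of 150 bases. Per the submitters' processing notes, the tools named were Trimmomatic 0.33, HISAT2 2.0.4, Cufflinks and Cuffdiff, with the GRCm38 genome. The authors deposited 1 table of FPKM values, which hold no read counts; no count test was possible, and the number of reads behind a value is unknown.

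Columns were assigned to samples by their titles and all 33 were used. Symbols came with the table (52398 identifiers matched the gene name list), and 13 symbols altered to dates were restored. Genes with at least 1 FPKM in at least 3 libraries (16508, all 6 members among them) were fitted with limma 3.58.1 in R 4.3.3 on log2(FPKM + 1), with a variance trend and 1 model of 11 group means. Benjamini-Hochberg adjustment ran over all of them. All group comparisons therefore share 1 estimate of the spread, and comparisons with a common group are not independent. The fit was tested on simulated data. Alternatives were other scalings, pseudocount, filters, samples in the fit, variance trend, replicate block and leaving out each replicate.

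The members and the gene lists were chosen with earlier results of these data known. Named genes were the 6 members, the 3 genes most like each, the measured relatives and partners, the nearest genes on each side, and the 4 largest called changes on day 10 in each longer list among genes of at least 5 FPKM; 1 gene that this rule names is not reported here. Marker lists for trophoblast, neural and feeder cells were also summed: in RA/CHIR-16d the sums were 483.3 to 501.8, 6.95 to 9.28 and 435.8 to 474.5 FPKM, and in RA/CHIR-10d 193.2 to 202.3, 5.49 to 6.15 and 58.0 to 60.3 FPKM. Their part in the members' levels was not tested.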

Additional observations from a re-analysis of the deposited data

Results flagged for a closer look

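The change from day 4 to day 10 differed between the arms by an interaction test in limma for 5 of the 6 genes. The difference (RA/CHIR arm minus RA arm, log2(FPKM + 1) scale) was 3.71 for Fbxo15, 2.86 for L1td1, 2.77 for Sall4, 2.65 for Dppa5a and 1.29 for Dppa4. Groups of 3 libraries are too small for a check of single outlying samples, so RA-16d replicate 1, with 6.93 FPKM of Sall4 against 2.17 and 2.98, was not assessed in that way.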

How the results depend on the processing

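No tested difference of the 6 genes that was called changed sign under any alternative: 1067 of the alternative values kept the side of the call, 22 gained a call and 3, all for Dppa2 from RA-4d to RA-7d, lost it. With a pseudocount of 0.1, 6 genes were called lower from RA-7d to RA-10d in place of 3. By adjusted p alone, without the size limit, the counts were 2 higher on day 4 in place of 1, 6 lower from RA-7d to RA-10d in place of 3, 4 lower from RA/CHIR-4d to RA/CHIR-7d in place of 1, and 1 lower from RA/CHIR-7d to RA/CHIR-10d in place of 0. That rule also called Fbxo15 lower with CHIR on day 4 (-0.32, limma adjusted p = 0.0192). The Dppa5a share of mES in RA/CHIR-16d was 19.06% after quantile normalization, against 16.2%. The cause of these shifts was not tested, apart from the size limit, which adjusted p alone leaves out.

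Leaving out 1 library at a time gave 5 to 6 genes lower from RA-4d to RA-7d and 3 to 4 from RA-7d to RA-10d, and left the other 9 counts as they were. Shares of mES in RA/CHIR-16d then ran from 64.4 to 72.4% for Fbxo15, 24.6 to 28.7% for Sall4, 23.3 to 30.2% for Dppa2, 15.6 to 16.7% for Dppa5a, 14.7 to 15.7% for L1td1 and 7.08 to 9.53% for Dppa4. Leaving mES replicate 3 out of the shared fit of the tested comparisons was chosen after seeing the data and changed no count of the 6 genes.

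Over all genes, a pseudocount of 0.1 gave 2192 calls on day 4 (1259 as reported), 2964 on day 7 (1762), 3888 on day 10 (2546), 1584 from RA-4d to RA-7d (794), 754 from RA-7d to RA-10d (329), 1054 from RA/CHIR-4d to RA/CHIR-7d (449) and 526 from RA/CHIR-7d to RA/CHIR-10d (176). By adjusted p alone the same 7 counts were 7084, 7812, 9112, 5809, 4258, 4623 and 3305. They were 6696 for the interaction (2332), 10744 for XEN against SMC (4905), 10134 for RA/CHIR-10d against XEN (3647) and 11494 for RA-10d against SMC (4898).

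Same-numbered replicates deviated together weakly or not at all (correlations from -0.11 to 0.109), and the fit did not pair them. Whether same-numbered samples had a shared origin is unknown, since weak correlations cannot decide it. With a replicate block the counts for the 6 genes were the same, such as 6 higher on day 10, and 2544 in place of 2546 genes were called on that day. Without counts, no counting error could be given for the low values, such as those under 1 FPKM.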

Other observations

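Stra8, a gene known to respond to retinoic acid in germ cells and part of the germline list, measured 12.3 FPKM in mES, and on day 4 measured 42.8 in the RA arm and 89.2 in the RA/CHIR arm. It was at 6.50 in RA-10d and 4.60 in RA/CHIR-10d, and at 1.29 and 1.18 on day 16. Dnmt3l, a cofactor of DNA methylation in germ cells, was at 120.3 FPKM in mES, 32.3 in RA/CHIR-4d, 0.338 in RA/CHIR-10d and 6.89 in RA/CHIR-16d. Its catalytic partner Dnmt3b was at 20.0, 8.88, 2.96 and 13.7 FPKM in the same groups. By limma, Stra8 was called higher with CHIR on day 4 (log2 difference 1.05, adjusted p = 5.28e-05) and lower from day 4 to day 7 in the RA arm (-1.86) and the RA/CHIR arm (-3.04). From day 4 to day 7 Dnmt3l was called lower in the RA arm (-3.62) and the RA/CHIR arm (-3.06), and Dnmt3b in the RA arm (-1.73) but not in the RA/CHIR arm (-0.78). The step to day 16 is given as levels only, and these 3 genes were chosen after their values were seen.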
